A study of Mus musculus with 8 samples.

Results

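Cholesterol synthesis and its control were examined through 7 genes: Hmgcs1, Idi1, Fdft1 and Sqle, which encode enzymes of the pathway; Insig1 and Srebf2, which belong to its sterol sensor; and Stard4, which encodes a sterol carrier. They were taken by name. Every non-control probe that the scanner files assign to 1 of these genes was used, which gave 11 probes of the 39429 on the array and 7 of 30141 gene names. The samples were total RNA from pancreatic beta cells of C57BL/6 mice, frozen at sacrifice, from 4 biological replicates on a chow control diet and 4 on a high-fat diet. Each replicate had its own Cy3 array. The labels give no age, sex or duration of the diet, and do not say how the cells were isolated or whether animals were pooled. The labels call the replicates biological without naming separate animals, so the p-values measure the spread between these samples.

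Cells make cholesterol from acetyl-CoA by way of mevalonate, isoprenoid diphosphates and squalene. The supply is set by a feedback loop: when membrane sterol is low, the transcription factor SREBP-2, the product of Srebf2, is carried by SCAP from the endoplasmic reticulum to the Golgi, is cut there and switches on the genes of synthesis and uptake, and when sterol is plentiful the INSIG proteins hold SCAP and SREBP-2 back. Hmgcs1, Idi1, Fdft1, Sqle, Insig1, Stard4 and Srebf2 itself are all known as targets of this factor. Beta cells depend on the balance, since too much or too little membrane cholesterol is known to disturb insulin secretion.

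The factor reads its targets through sterol regulatory elements in promoters, usually beside CCAAT boxes bound by NF-Y, so the promoters of the members in the RefSeq table (4 of 7) are shown. Each is the 250 bases before the RefSeq start site on GRCm38.p6, plus strand, 5′ to 3′, with capitals for matches to the SREBP consensus TCACNCCAC, to CCAAT (printed as ATTGG where it lies on the other strand) and to the E-box CACGTG. Both strands were searched and no matches overlapped.
Hmgcs1, chr13:119690101-119690350: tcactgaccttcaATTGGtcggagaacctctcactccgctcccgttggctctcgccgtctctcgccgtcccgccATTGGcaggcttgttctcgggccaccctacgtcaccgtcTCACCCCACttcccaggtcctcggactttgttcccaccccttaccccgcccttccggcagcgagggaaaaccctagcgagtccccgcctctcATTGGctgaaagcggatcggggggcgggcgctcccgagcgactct
Idi1, chr13:8885356-8885605: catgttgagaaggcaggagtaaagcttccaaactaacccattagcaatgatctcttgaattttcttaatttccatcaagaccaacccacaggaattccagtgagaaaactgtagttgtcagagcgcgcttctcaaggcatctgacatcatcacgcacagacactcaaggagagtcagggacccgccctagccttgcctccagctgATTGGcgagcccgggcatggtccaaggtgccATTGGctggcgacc
Insig1, chr5:28071162-28071411: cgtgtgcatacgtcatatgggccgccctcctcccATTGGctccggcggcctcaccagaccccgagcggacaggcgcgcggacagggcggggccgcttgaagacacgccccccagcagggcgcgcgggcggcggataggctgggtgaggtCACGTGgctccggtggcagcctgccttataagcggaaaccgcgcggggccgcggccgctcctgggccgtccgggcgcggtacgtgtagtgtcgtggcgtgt
Srebf2, chr15:82147019-82147268: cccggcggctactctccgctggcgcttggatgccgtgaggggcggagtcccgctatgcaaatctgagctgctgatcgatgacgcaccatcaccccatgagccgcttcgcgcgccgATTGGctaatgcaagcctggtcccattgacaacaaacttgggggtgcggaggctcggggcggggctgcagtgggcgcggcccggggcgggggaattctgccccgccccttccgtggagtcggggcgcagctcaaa

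The SREBP consensus was found in the Hmgcs1 window, from 137 to 129 bases before the start site, and in 1.05% of the 32851 windows of that length in the table. CCAAT matches were found in all 4 windows shown, 3 of them in Hmgcs1 and 2 in Idi1, and in 33.8% of all windows. The E-box was found in the Insig1 window, from 101 to 96 bases before the start, and in 6.02% of all windows. Exact matches alone were sought, so a window without capitals for the consensus may still hold a variant of it. A match is a run of letters and was not tested as a binding site.

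Levels are given as log2 of the processed signal minus the 75th percentile of the same array, so 0 is the brightness of that percentile. That percentile ranged from 333.6 to 710.8 intensity units, between 63.6% and 68.6% of the 43020 non-control spots per array were well above background, and 0 spots were saturated. The arrays lay on 2 slides with 2 arrays of each diet on each. Replicates 1 and 2 were on slide 1 and replicates 3 and 4 on slide 2, and control arrays held positions 1 and 3 and high-fat arrays positions 2 and 4, so position and diet cannot be told apart. Markers of the labelled cell type were present, with all 10 beta cell markers detected on every array, that is, marked by the scanner software as clearly over background, and so were all 8 of alpha cells, 6 of delta and PP cells and 10 of acinar cells. The summed level of the acinar list (log2) ranged from 10.9 to 11.8 in the control samples and from 11.1 to 11.9 in the high-fat samples. That of the beta cell list was lower, from 9.66 to 10.17 and from 9.78 to 10.19. In such bulk samples the member levels cannot be assigned to beta cells alone. Fewer cells of a type and less RNA per cell cannot be told apart either.

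Of the 11 member probes, 9 were detected on 4 or more of the 8 arrays and were tested, with at least 1 for each gene. The other two, probe A_55_P1954569 of Hmgcs1 and probe A_52_P136138 of Fdft1, were not well above background on any array, with processed signals of at most 6.88 and 10.8 intensity units. They give no fold. Both target positions further along the transcript than the detected probe of the same gene.

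No member passed the test. At an adjusted p under 0.05 (limma, Benjamini-Hochberg over 26076 probes) 0 of 9 member probes were called, against 0% of all probes, and the smallest adjusted p over the array was 0.154. The largest difference among the members was that of Stard4. At an unadjusted p under 0.05, 1 of the 9 was lower after the high-fat diet, against 3.46% of all probes, and 0 were higher. The diets did not overlap for 1 of the 9, against 3.37% of all probes. With the brightest probe for each gene, 6 of the 7 genes lay below 0 (50.3% of 20056 genes did), with a median difference of -0.20 (-0.0015 for all genes). The count was 4 of 7 with scaling to the array median (35.4% of all genes), where Sqle and Fdft1 turned above 0. It was also 4 without control replicate 2 (54.7% of all genes).

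**Figure D1:**
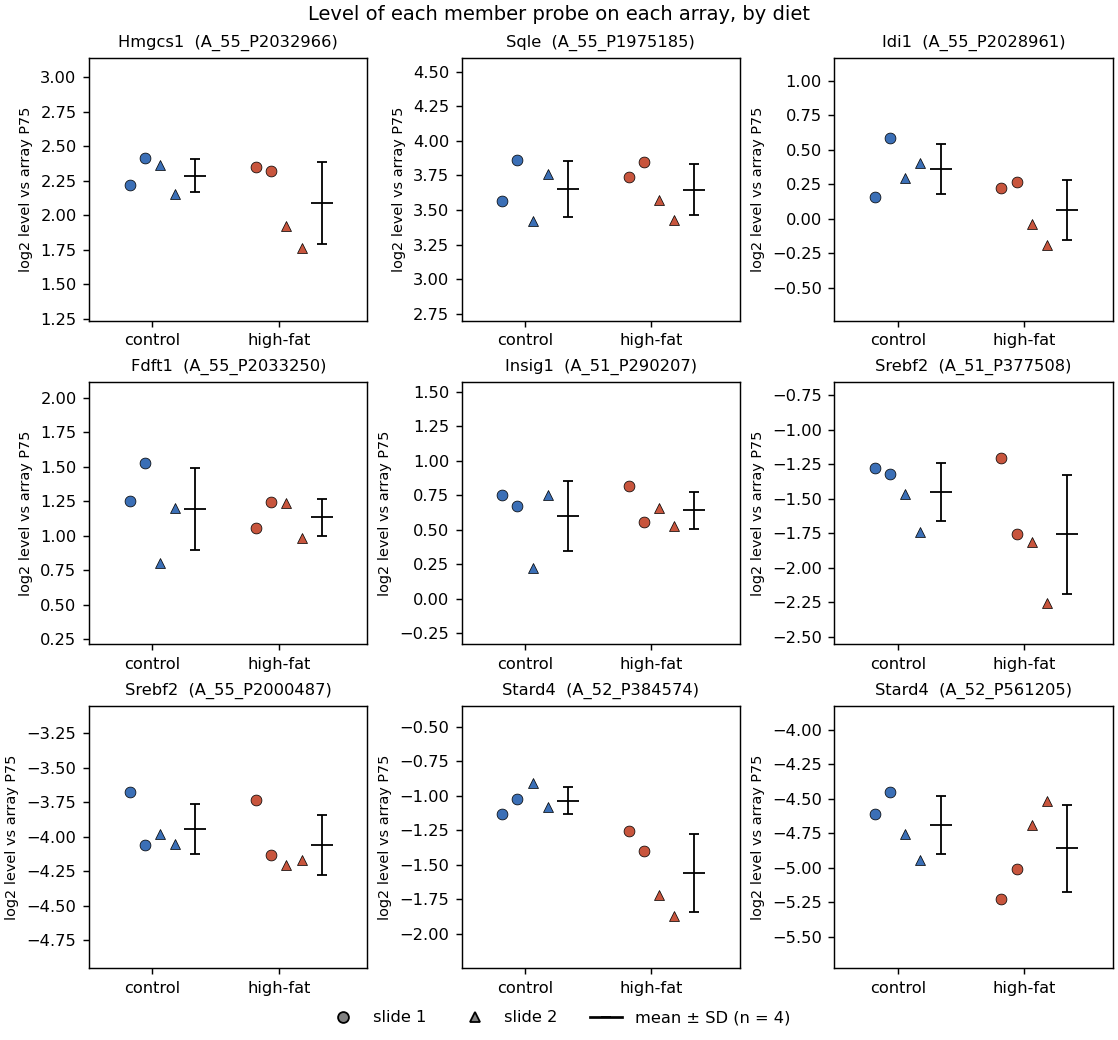
Each panel plots 1 tested member probe: log2 level relative to the 75th percentile of the array (vertical axis) for the 4 control (blue) and 4 high-fat (red) arrays, with circles for slide 1, triangles for slide 2 and the mean ± SD beside each group. The panels differ in level but span the same log2 width, and the diets separate for Stard4 probe A_52_P384574 alone.

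Hmgcs1 and Idi1, which act before squalene is formed, lay below 0 with intervals that include 0. Hmgcs1 encodes the cytosolic synthase that makes HMG-CoA on the way to mevalonate, and its probe A_55_P2032966 lies on the unplaced chromosome 13_random, 114793 to 114852 of mm9. Its levels were 2.22, 2.41, 2.37 and 2.16 in control replicates 1 to 4 and 2.35, 2.32, 1.92 and 1.76 in high-fat replicates 1 to 4. High-fat replicates 1 and 2 lay within the control range and replicates 3 and 4 below it. The difference, high-fat minus control, was -0.20 ± 0.16 on the log2 scale (SE, 95% interval -0.56 to 0.17), with 0.022 on slide 1 and -0.42 on slide 2 (limma adjusted p = 0.922). It was -0.090 without high-fat replicate 4 and -0.29 without high-fat replicate 1.

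Idi1 encodes the isomerase that turns isopentenyl diphosphate into dimethylallyl diphosphate, and was read by a probe on chromosome 13 of mm9, from 8891524 to 8891583. Its levels were 0.16, 0.59, 0.29 and 0.40 in the control samples and 0.22, 0.27, -0.039 and -0.19 in the high-fat samples. The groups overlapped through control replicate 1, and high-fat replicates 3 and 4 lay below every control. The difference was -0.29 ± 0.15 (95% interval -0.63 to 0.041; limma adjusted p = 0.881), with -0.13 on slide 1 and -0.46 on slide 2.

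The enzymes around squalene lay near 0. Fdft1 encodes squalene synthase, which joins 2 farnesyl diphosphates, and its detected probe A_55_P2033250 maps to the span from 63765750 to 63769990 of chromosome 14 on mm9. That span is longer than the probe, which therefore lies across at least 1 splice junction. Fdft1 stood at 1.25, 1.52, 0.80 and 1.20 in the control samples and at 1.06, 1.25, 1.24 and 0.99 in the high-fat samples, and the lowest and the highest of the 8 arrays were both controls. The difference was -0.062 ± 0.16 (95% interval -0.43 to 0.31).

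Sqle encodes squalene epoxidase, a rate-limiting step after squalene, with a probe at chromosome 15, 59162688 to 59162747 of mm9. Its levels were 3.57, 3.86, 3.42 and 3.76 in the control samples and 3.74, 3.85, 3.57 and 3.43 in the high-fat samples, so the groups covered almost the same range. The difference was -0.0048 ± 0.14 (limma adjusted p = 0.997). In this fit the 95% interval, -0.33 to 0.32, leaves out a change of more than 1.26-fold in either direction. With normexp background correction the difference was -0.42, outside that interval.

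In the sterol sensor, Insig1 lay close to 0 and Srebf2 below it. Insig1 encodes an endoplasmic reticulum protein that retains SCAP, and was read by a probe on chromosome 5 of mm9, from 28404246 to 28404305. Its levels were 0.76, 0.67, 0.23 and 0.76 in the control samples and 0.82, 0.56, 0.66 and 0.53 in the high-fat samples, with control replicate 3 apart from the rest. The difference was 0.038 ± 0.15 (95% interval -0.30 to 0.38; limma adjusted p = 0.981), and it was -0.088 without that replicate.

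Srebf2, the gene of the factor itself, had 2 tested probes on chromosome 15. Probe A_51_P377508 (82034765 to 82034824 of mm9) read -1.28, -1.32, -1.46 and -1.74 in the control samples and -1.20, -1.76, -1.81 and -2.26 in the high-fat samples. High-fat replicate 1 was the highest of all 8 arrays, and the other three high-fat samples lay below every control. The difference was -0.31 ± 0.22 (95% interval -0.81 to 0.20; limma adjusted p = 0.922). Without high-fat replicate 1 it was -0.49 (limma adjusted p = 0.414), and without high-fat replicate 4 it was -0.14. The dimmer probe A_55_P2000487 (82030068 to 82030127) read between -4.06 and -3.68 in the control samples and between -4.20 and -3.73 in the high-fat samples, with a difference of -0.12 ± 0.15. Its processed signal was at most 55.6 intensity units.

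**Figure D2:**
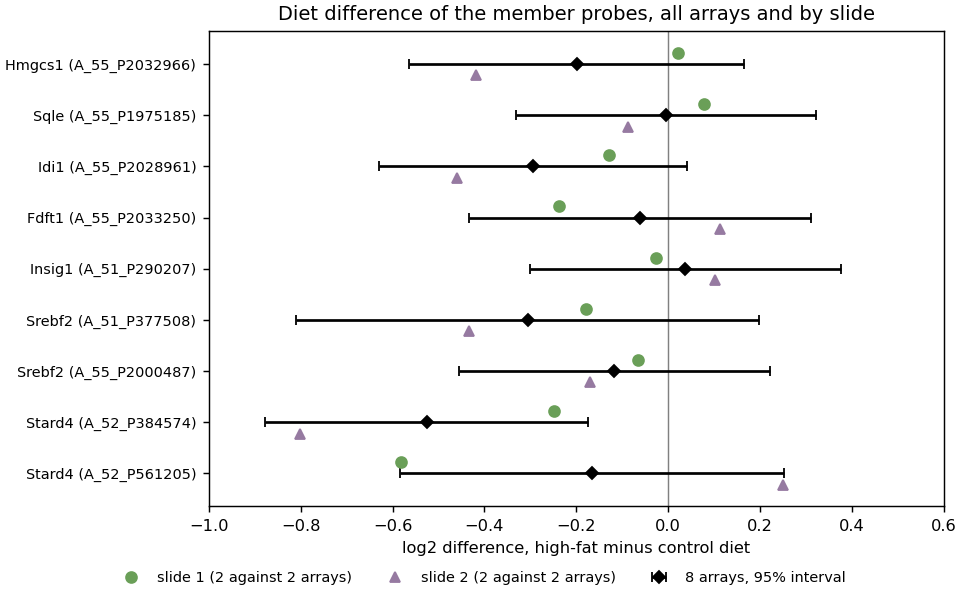
The log2 difference, high-fat minus control (horizontal axis), is shown for each tested member probe: diamonds with 95% intervals use all 8 arrays, circles slide 1 and triangles slide 2, each slide with 2 arrays per diet. The interval of Stard4 probe A_52_P384574 (-0.88 to -0.17) is the one that leaves out 0, and its 2 slide values are -0.25 and -0.80.

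Stard4 gave the largest difference of the 7 genes, and the probes for it differed in size and, on slide 2, in sign. Its product is a soluble carrier with a START domain that moves sterol between membranes, among them the plasma membrane and the endoplasmic reticulum where SCAP sits. Probe A_52_P384574, at chromosome 18, 33361181 to 33361240 of mm9, read -1.13, -1.02, -0.90 and -1.08 in the control samples and -1.25, -1.40, -1.72 and -1.87 in the high-fat samples. Every high-fat sample lay below every control, and the high-fat samples were spread more widely (SD 0.28 against 0.098, n = 4 each). The difference was -0.53 ± 0.15, a 1.44-fold lower signal (95% interval -0.88 to -0.17), and it ranked 309 of 26076 probes by p. It did not pass (limma adjusted p = 0.716; adjusted p = 0.552 with the slide as a block).

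The difference of this probe was -0.25 on slide 1 and -0.80 on slide 2. The difference between the slides was -0.55 ± 0.21 (limma interaction term, adjusted p = 0.744). Leaving out each sample in turn gave values from -0.63 without high-fat replicate 1 to -0.42 without high-fat replicate 4. In the deposited value table the difference was -0.16, on a scale that compresses differences of dim probes.

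The other Stard4 probe, A_52_P561205, maps to the span from 33365863 to 33367852 of chromosome 18, across at least 1 splice junction, and lies nearer the 5′ end of the transcript. It was detected on 2 arrays of the control diet and 3 of the high-fat diet, with processed signals of at most 29.0 intensity units. It read -4.61, -4.45, -4.76 and -4.95 in the control samples and -5.22, -5.01, -4.69 and -4.52 in the high-fat samples. The difference was -0.17 ± 0.18 over all arrays, -0.58 on slide 1 and 0.25 on slide 2. Both Stard4 probes were thus below 0 on slide 1, and their signs differed on slide 2, where the brighter probe stood at -0.80. The interaction of slide and diet was 0.83 ± 0.23 (limma adjusted p = 0.744), and the terms of both Stard4 probes had an unadjusted p under 0.05, as did 6.54% of all probes.

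Most markers of alpha and delta cells and of macrophages lay below 0 beside Stard4, while those of some other cells lay mostly above 0. Of 8 alpha cell markers 7 lay below 0 (50.3% of all genes did), with a median difference of -0.67, and 5 of them had an unadjusted p under 0.05 (3.31% of all genes did in that direction). Of 6 delta and PP cell markers 6 lay below 0, with a median of -0.42, and 4 had such a p. It was not reached by the PP cell gene Ppy (-0.037 ± 0.24) or by Pyy (-0.15 ± 0.14), both named after their values were seen. Of 8 macrophage markers 7 lay below 0, with a median of -0.37 (-0.71 on slide 1 and -0.061 on slide 2), and 0 had such a p. None of them was called over all probes. The summed level of the alpha list ranged from 8.08 to 8.54 (log2) in the control samples and from 8.11 to 8.39 in the high-fat samples, and that of the delta and PP list from 8.50 to 8.89 and from 8.28 to 8.51. Of 10 beta cell markers 5 lay below 0, with summed levels from 9.66 to 10.17 in the control and from 9.78 to 10.19 in the high-fat samples. The median difference of 10 acinar markers was 0.56 on slide 1 and -0.39 on slide 2. Of 7 endothelial markers 6 lay above 0 (9959 of 20056 genes did), with a median of 0.13. The same held for 6 of 8 stellate cell and pericyte markers (median 0.20) and 4 of 6 measured ductal markers (median 0.078). The part of any of these cells in the Stard4 difference was not tested.

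**Figure D3:**
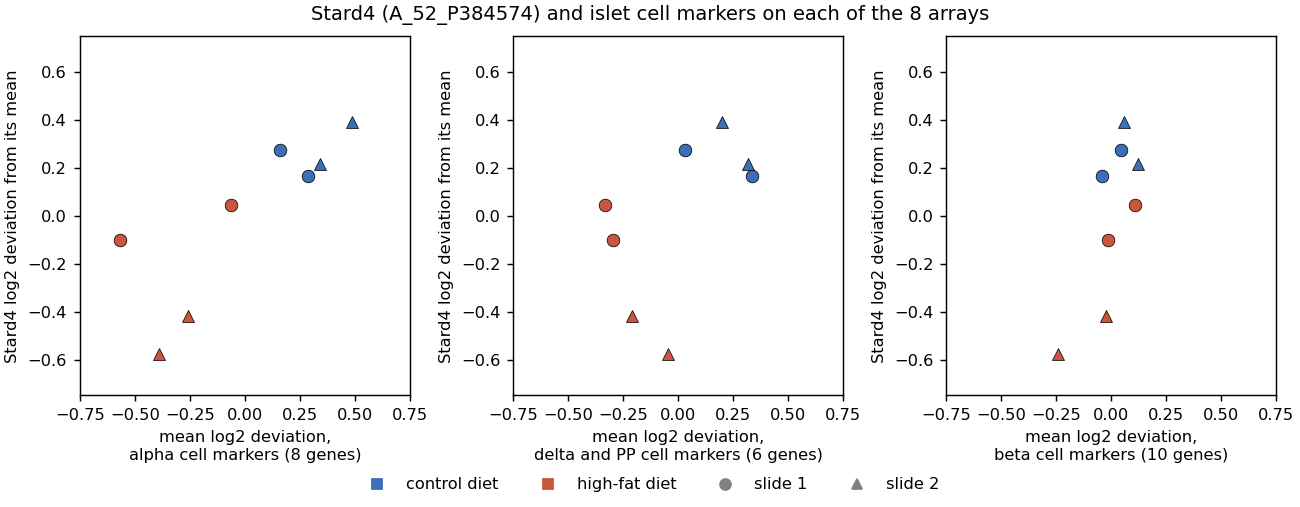
Each point is 1 array, coloured by diet and shaped by slide; the vertical axis is the log2 level of Stard4 probe A_52_P384574 minus its mean over the 8 arrays, and the horizontal axes are the mean of such deviations over the markers of alpha, delta and PP, and beta cells. The 4 high-fat arrays lie lower and further left than the 4 controls in the alpha cell panel and in the delta and PP cell panel, while in the beta cell panel the diets overlap along the horizontal axis.

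The members varied together in part. Over the 8 arrays the mean of the 7 genes, each centred on its own mean, was highest in control replicate 2 (0.25) and lowest in high-fat replicates 3 (-0.16) and 4 (-0.36), the high-fat samples of slide 2. Pearson r between pairs of members had a median of 0.54 over 21 pairs, and 19 were above 0. Hmgcs1 went with Stard4 (r = 0.86), Idi1 (0.85) and Srebf2 (0.83), and Sqle with Fdft1 (0.74), while Insig1 and Stard4 stood at -0.080. With each slide and diet centred first the median was 0.13, with 0.97 for Sqle and Fdft1 and 0.89 for Hmgcs1 and Stard4. With 2 arrays of each diet on each slide, the centred values of such arrays are equal and opposite. The centred r thus rest on fewer independent values than the 8 arrays. All these r are descriptions over 8 arrays that share their slide and scaling. Pairs of other genes were not summarized for comparison.

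Among 17847 other genes well above background on all 8 arrays, the 5 most like the mean of the members were Ube2o, a ubiquitin-conjugating enzyme (r = 0.97), the exoribonuclease Xrn2 (0.97), the ribosome assembly kinase Riok2 (0.97), the mitochondrial chaperone Hspa9 (0.97) and the RNase P subunit Rpp38 (0.96). None of these belongs to the sterol lists. The closest sterol gene was the methylsterol oxidase Msmo1 (r = 0.95, place 11), followed by the 3-ketosteroid reductase Hsd17b7 (0.90, place 69). With levels centred within each slide, Hsd17b7 was among the first 5 (r = 0.96), with Riok2 at 0.99.

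Most of the synthesis pathway lay slightly below 0. This held for 18 of 22 synthesis genes, members included, with a median difference of -0.075 (50.3% of all genes lay below 0). On slide 1 alone it held for 15 of 22 (46.1% of all genes). On slide 2 alone it held for 13 of 22, near the share of all genes (58.3%). Without control replicate 2 it held for 13 of 22 (54.7% of all genes), with a median of -0.033. Without control replicate 3 it held for 19 (47.0% of all genes), with a median of -0.17. The median was -0.040 without high-fat replicate 4. An unadjusted p under 0.05 was reached downward by 3 of them (3.31% of all genes) and upward by 0 (2.43% of all genes), and without 1 sample the downward count ranged from 0 (without control replicate 4) to 3. The count below 0 was 11 of 22 with scaling to the array median, where 35.4% of all genes lay below 0. That scaling moved the median of all genes to 0.075. It turned the balance over all genes at that p from 664 lower and 487 higher to 373 lower and 735 higher. Without the 4 members, 14 of 18 lay below 0. None was called.

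The enzymes with such a p were not members. Hsd17b7, a reductase of the late pathway, differed by -0.54 ± 0.23 (limma adjusted p = 0.852) and Acat2, the cytosolic thiolase at the start, by -0.40 ± 0.15 (adjusted p = 0.796). Both were below 0 on each slide. The cyclase Lss stood at 0.0080 ± 0.27 and the demethylase Cyp51 at -0.089 ± 0.14.

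**Figure D4:**
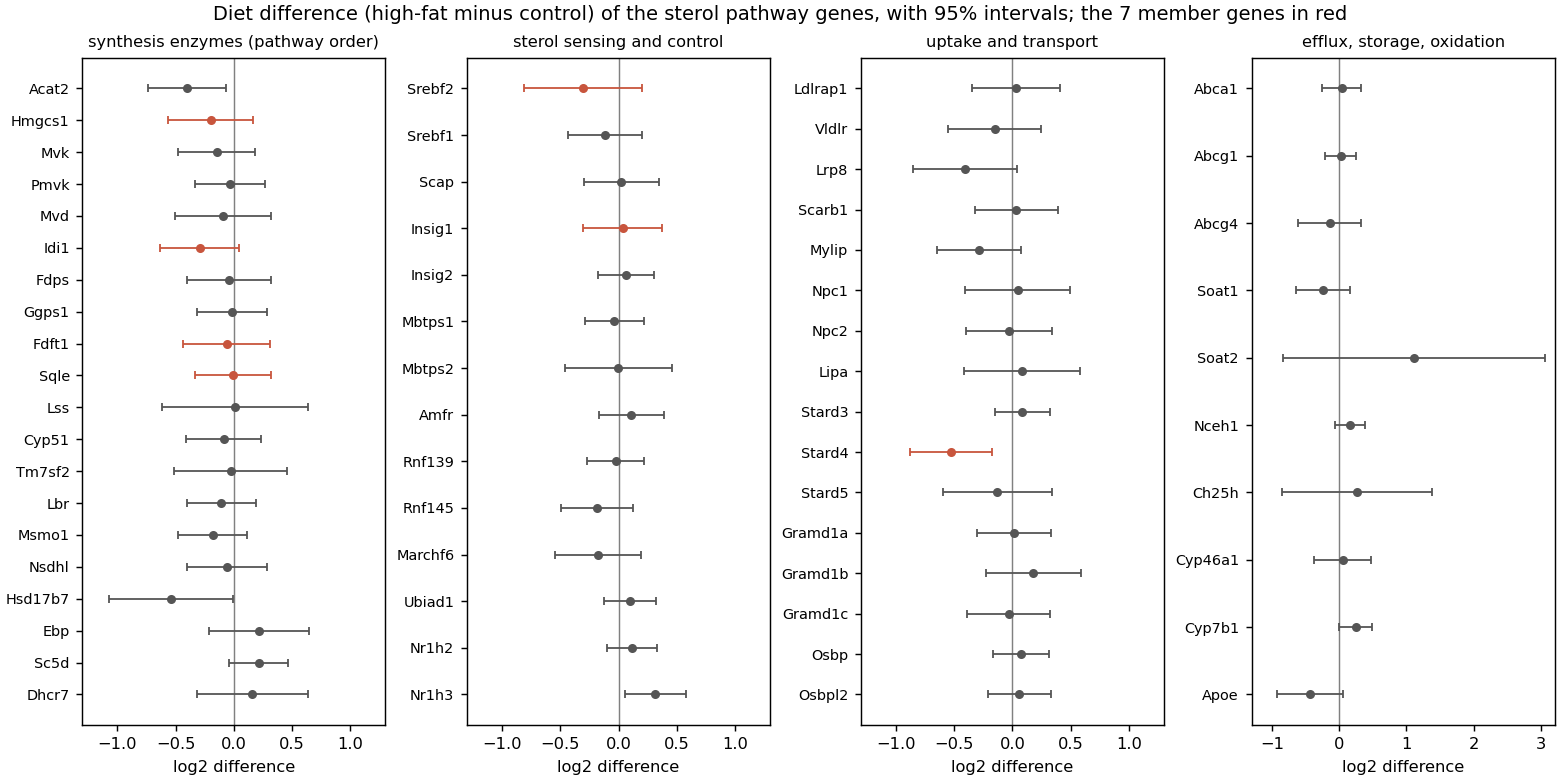
The log2 difference, high-fat minus control, with its 95% interval is shown for genes of 4 sterol lists, with the 7 members in red, a wider scale in the last panel and synthesis enzymes in pathway order. Most synthesis points lie left of 0, and the intervals of Acat2, Hsd17b7 and Stard4 lie wholly below 0 and that of Nr1h3 wholly above.

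Genes of sterol sensing lay on both sides of 0, 7 below and 7 above of 14, with a median of 0.012. The count below 0 was 4 with scaling to the array median (35.4% of all genes). It was 11 with normexp background correction (41.3% of all genes). Nr1h3, the oxysterol receptor LXR alpha, was the gene with an unadjusted p under 0.05, at 0.32 ± 0.11 (adjusted p = 0.792). The escort protein Scap stood at 0.025 ± 0.14, Insig2 at 0.064 ± 0.10 and Srebf1, the gene of SREBP-1, at -0.12 ± 0.14. Of the 18 genes of uptake and transport 9 lay below 0, with a median of -0.010, and Stard4 was the 1 gene lower at an unadjusted p under 0.05. On slide 1 alone 14 of the 18 lay below 0 (46.1% of all genes) and on slide 2 alone 7 (58.3% of all genes). Without control replicate 3 the count was 13 (47.0% of all genes). The related carrier Stard5 differed by -0.13 ± 0.20. Of 10 measured genes of efflux, storage and oxidation 7 lay above 0 and 0 had an unadjusted p under 0.05, with the exporter Abca1 at 0.040 ± 0.13. Without control replicate 2, 4 of these 10 lay above 0 and the median turned from 0.047 to -0.039.

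The member differences were read again under other processing. Stard4 probe A_52_P384574 and Idi1 kept their sign in 23 of 23 alternatives. Stard4 ranged from -0.80 on slide 2 to -0.070 with normexp background correction, with an unadjusted p under 0.05 in 21 of 23 alternatives and an adjusted p from 0.246 to 1.00. On high-fat replicate 2, 7 spots lay in a bright background smear that enters the normexp fit of that array, and without them the Stard4 difference was -0.32. The values of Srebf2, Insig1 and the dim Stard4 probe turned sign with normexp, at 0.17 and 0.59 for the Srebf2 probes, -0.093 for Insig1 and 0.65 for A_52_P561205. Without the smeared spots the Srebf2 probes stood at -0.16 and -0.024, Insig1 at 0.025 and A_52_P561205 at 0.046. Normexp also gave -0.57 for Hmgcs1 and -0.42 for Sqle, against -0.19 and -0.0043 without the smeared spots.

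**Figure D5:**
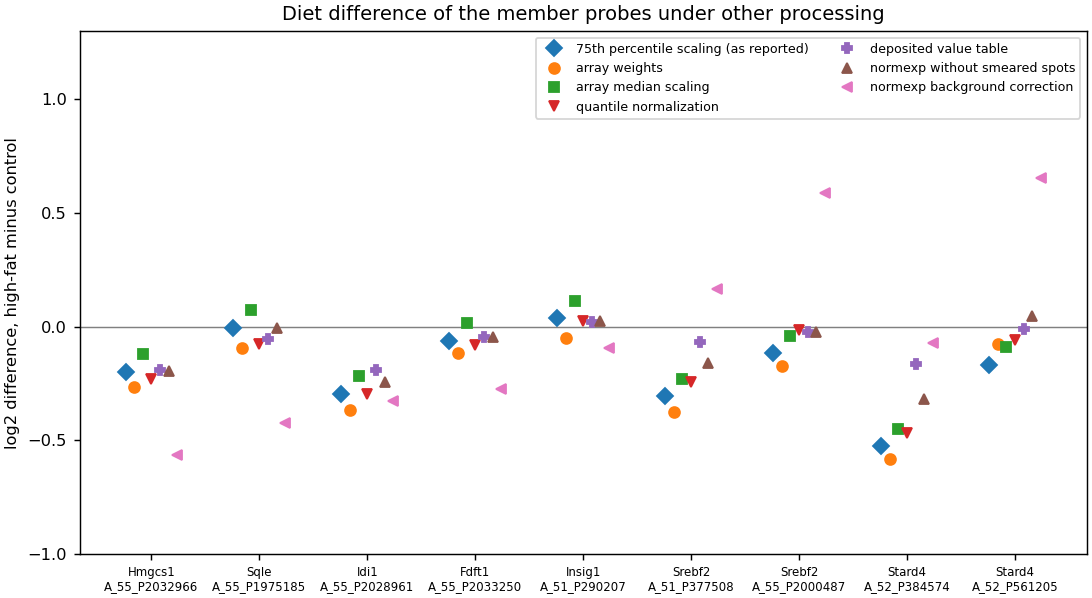
Each column is 1 tested member probe and each symbol 1 way of processing; the vertical axis is the log2 difference, high-fat minus control. Normexp background correction (pink triangles pointing left) gave the highest value for both Srebf2 and both Stard4 probes and the lowest for Hmgcs1, Sqle, Fdft1 and Insig1.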

How the data were processed

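Per the file headers, the authors scanned 1-colour Agilent arrays (probe positions on mm9) with Feature Extraction 11.5.1.1, whose spot signals are intensity values. The deposited value table holds log2 values (28061 probes, column medians from 8.681 to 8.689). The submitters' processing notes name limma; the steps, centring and background handling are not given in the sources used here, and its values follow the scanner files in direction.

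Here log2 processed signal minus each array's 75th percentile was used, without control and outlier spots, with spots of a probe averaged. A probe was fitted where 4 or more of its 8 arrays were flagged well above background (limma 3.58.1, R 4.3.3, lmFit and eBayes, Benjamini-Hochberg, threshold 0.05). The fit was also run on simulated data with independent noise on each array, no slide effects and added changes larger than those of the members. That run says nothing about differences of the size seen in the members. Genes were named through RefSeq accessions for 28025 of 39429 probes, otherwise by the file's name, and a gene's brightest probe stands for it in lists. Named genes were the members, every listed sterol gene at an unadjusted p under 0.05, a fixed set and the 5 genes of most like pattern; some listed genes enter the counts but are not reported here by name. The members and lists were chosen with earlier results of these data known; lists were written by hand. Alternatives were normexp (offset 50) with and without smeared spots (local background over 4 times the array's median), quantile and median scaling, the deposited table, other filters, variance models and probe rules, slide and replicate blocks, fits to single slides and leaving out each sample. No sequence is printed for Stard4, nor for probes. Figures were drawn with matplotlib 3.10.9.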

Additional observations from a re-analysis of the deposited data

Results flagged for a closer look

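In 2 of 18 groups of 4 samples (9 tested member probes, 2 diets) 1 sample stood far from the other three, where chance gives about 1 in 20 groups. For Insig1 in the control diet it was replicate 3, at 0.23 against 0.67 to 0.76, a gap of 0.842 of the group's range. For Srebf2 probe A_55_P2000487 in the high-fat diet it was replicate 1, at -3.73 against -4.20 to -4.13, a gap of 0.849 of the range.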

How the results depend on the processing

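The count of member probes called was 0 under all 21 alternatives run for it (limma), with an unadjusted p under 0.05 for at least 1 member in 20 of them, and the count over all probes was 0 except with a trended and robust eBayes, which called 1 probe, that of Gfra3 (named after its value was seen; adjusted p = 0.0423). At an unadjusted p under 0.05 the count over all probes was 1508. Some member signs turned, not only for differences near 0. Normexp gave -0.093 for Insig1, 0.17 and 0.59 for the Srebf2 probes A_51_P377508 and A_55_P2000487 and 0.65 for Stard4 A_52_P561205, and moved the median of all genes to 0.13. Without the 7 smeared spots normexp gave 0.025 for Insig1 and -0.16 and -0.024 for the Srebf2 probes, back on the reported side of 0, and 0.046 for Stard4 A_52_P561205, still turned. Median scaling gave 0.072 for Sqle and 0.015 for Fdft1, and array weights -0.047 for Insig1. Slide 1 alone gave 0.022 for Hmgcs1, 0.078 for Sqle and -0.026 for Insig1; slide 2 alone gave 0.11 for Fdft1 and 0.25 for Stard4 A_52_P561205. Leaving out 1 sample gave ranges of -0.29 to -0.090 for Hmgcs1, -0.083 to 0.068 for Sqle, -0.19 to 0.048 for Fdft1 and -0.088 to 0.089 for Insig1. The causes of the other turns were not tested. Correlations of same-numbered samples' deviations were 0.237, 0.394, -0.024 and 0.299. Control replicates 1, 2 and 4 went best with their own number, and control replicate 3 with high-fat replicate 4 (0.177). The labels name no pairs, and the reported fit took none. With the replicate number as a block (limma) the median SE was 0.138, 0 probes were called and 2422 had an unadjusted p under 0.05. The adjusted p of Stard4 A_52_P384574 in that fit was 0.504. Dim probes limit what can be seen: A_52_P561205 and A_55_P2000487 lie near background. The median SE of a difference in the reported fit was 0.174.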

Other observations

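Genes of fatty acid synthesis that the related factor SREBP-1 is known to control lay mostly below 0 as well. Of 12 such genes 10 lay below 0 (50.3% of all genes did), with a median difference of -0.14. An unadjusted p under 0.05 was reached downward by 3 of them (3.31% of all genes), by 0 with the replicate number as a block, and without high-fat replicate 1 by 0 downward and 1 upward, and 0 were called by limma over all probes. The stearoyl-CoA desaturase Scd1 differed by -0.59 ± 0.23, its relative Scd2 by -0.43 ± 0.18 and the acetyl-CoA carboxylase Acaca by -0.24 ± 0.10, with 4 of 4 Acaca probes below 0. The fatty acid synthase Fasn stood at -0.048 ± 0.15 and malic enzyme Me1 at 0.21 ± 0.16. The count below 0 was 7 of 12 with normexp background correction (41.3% of all genes) and from 8 to 10 of 12 under the other alternatives.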
